A study of Mus musculus with 9 samples.

Results

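The Sox genes encode transcription factors that share a DNA-binding HMG box with SRY, the testis-determining factor. All 9 genes described here, Sox2, Sox4, Sox6, Sox7, Sox9, Sox11, Sox17, Sox18 and Sox21, were found by their gene symbol on the array platform, each with 1 probe. They are 9 of 17742 named genes on the arrays and 9 of 26423 probes, and the platform names 10 other Sox genes. The measurements are probe intensities, on a linear scale, from 9 arrays of colon RNA of female BALB/c mice.

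The arrays form 3 groups of 3. Vanillin mice were given 12.5 mg/kg azoxymethane (AOM), a colon carcinogen, into the peritoneum on day 1, and the gut irritant dextran sodium sulfate (DSS) at 2.5% in the drinking water from day 8. Each DSS period of 5 days was followed by 16 days of plain water, with 3 additional cycles, and these mice were also given 100 mg/kg vanillin by mouth for 91 days. Further vanillin doses named in the study's design were not analysed here. Sham mice had the same AOM and DSS course with no vanillin, and Mock mice were untreated. No label names the part of the colon that was taken, says whether it held tumours or ties an array to a mouse of its own. The p-values therefore rest on array-to-array spread, part or all of which may be technical. The number of arrays limits the precision.

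SOX proteins bind short AT-rich sites in the minor groove of DNA and bend it, and most act together with a partner factor. They fall into groups by the similarity of the HMG box: Sox2 and Sox21 belong to group B, Sox4 and Sox11 to group C, Sox6 to group D, Sox9 to group E, and Sox7, Sox17 and Sox18 to group F. In the intestine, Sox9 is known as a Wnt target of the crypt base that is needed for Paneth cells, and Sox4 is linked to Wnt signalling and to tuft cells. Group F is best known from blood and lymphatic endothelium, and Sox17 also from endoderm. Sox2 marks the epithelium of foregut and other squamous sites rather than that of the colon.

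Sequences are shown for 3 members that moved together, Sox4, Sox2 and Sox21, which were higher in Sham than in Mock and lower in Vanillin than in Sham. They are the 250 bases before the annotated start of each gene, from RefSeq with the build GRCm38.p6, and capitals mark CCAAT or its reverse complement ATTGG. RefSeq promoter entries were matched for 5 of the 9 members (these 3, Sox6 and Sox11). Sox4 lies on the minus strand (chr13:28953700-28953949), Sox2 on the plus strand (chr3:34649745-34649994) and Sox21 on the minus strand (chr14:118237031-118237280).
Sox4: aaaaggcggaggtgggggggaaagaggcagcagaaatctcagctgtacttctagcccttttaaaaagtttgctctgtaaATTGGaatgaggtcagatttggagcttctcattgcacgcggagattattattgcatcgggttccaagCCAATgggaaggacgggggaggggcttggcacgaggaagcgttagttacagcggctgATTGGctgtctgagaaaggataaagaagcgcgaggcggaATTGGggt
Sox2: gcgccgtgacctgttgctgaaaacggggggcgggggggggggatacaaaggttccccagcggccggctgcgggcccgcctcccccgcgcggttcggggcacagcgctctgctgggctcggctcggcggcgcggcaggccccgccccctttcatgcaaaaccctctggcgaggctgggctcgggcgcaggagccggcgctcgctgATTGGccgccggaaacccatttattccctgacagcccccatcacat
Sox21: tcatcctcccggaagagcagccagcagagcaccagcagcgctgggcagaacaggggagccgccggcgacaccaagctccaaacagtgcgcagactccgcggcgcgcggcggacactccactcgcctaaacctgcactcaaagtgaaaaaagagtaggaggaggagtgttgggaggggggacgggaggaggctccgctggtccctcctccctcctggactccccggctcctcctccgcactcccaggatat

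The Sox4 sequence holds 4 CCAAT matches, Sox2 holds 1 and Sox21 holds 0, where 33.8% of the 32851 upstream sequences in the table hold at least 1. This motif was chosen after the sequences had been read. The GC content was 50.8% for Sox4, 72.0% for Sox2 and 65.2% for Sox21, against a median of 52.4%, and the number of CpG pairs was 11, 27 and 17, against a median of 6. A search of both strands, which also covered the 50 bases after the start, found in these 3 promoters none of CTTTGAT and CTTTGAA (cores of TCF/LEF sites, in 3.73% and 5.14% of all promoters), AACAAAG and AACAATG (SOX cores, in 5.85% and 3.78%) or TATAAA (13.6%). CTTTGAT and CTTTGAA differ in the last letter, AACAAAG and AACAATG in the letter before it. A missing match says only that these letters are not in this window. Only these exact forms were searched, and other forms of such sites were not. The Sox2 sequence, for example, holds TACAAAG, which differs from AACAAAG in the first letter.

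Of the 9 genes, 8 differed between Sham and Mock, and Sox11 did not pass the test. Sox17, Sox4, Sox9, Sox2 and Sox21 rose in Sham relative to Mock, and Sox7, Sox6 and Sox18 fell. At an adjusted p under 0.05 in limma, 5 of 9 were called higher, where 36.5% of all probes were, and 3 of 9 lower, where 23.2% were. Called in either direction were 8 of 9, beside 59.7% of all probes. The arrays of the groups did not overlap for 8 of 9, beside 67.1% of all probes. The median size of change over the 9 was 1.19 on the log2 scale, beside 0.31 over all probes. The 9 were chosen with earlier results of these data known. Such contrasts with all probes, here and below, therefore describe these genes and not the Sox family. Among the 10 other Sox genes, 6 were called. In bulk colon RNA, fewer cells of a type and less RNA per cell cannot be told apart.

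Vanillin differed from Sham for 7 of the 9 genes, beside 47.9% of all probes called. Lower in Vanillin were 5 genes, Sox9, Sox4, Sox17, Sox2 and Sox21, beside 32.2% of all probes, and higher were 2, Sox7 and Sox18, beside 15.7%. Sox6 and Sox11 did not pass. Vanillin and Sham arrays were fully separate for 8 of 9 genes, beside 56.3% of probes, and the median size of change was 0.52, beside 0.21. Against Mock, Vanillin was higher for 6 of 9 (24.5% of probes) and lower for 2 of 9 (26.2% of probes), which makes 8 of 9 called, beside 50.7%. Their arrays did not overlap for 8 of 9, beside 60.4% of probes. The comparisons share arrays, so their values for a gene are not independent of one another.

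**Figure D1:**
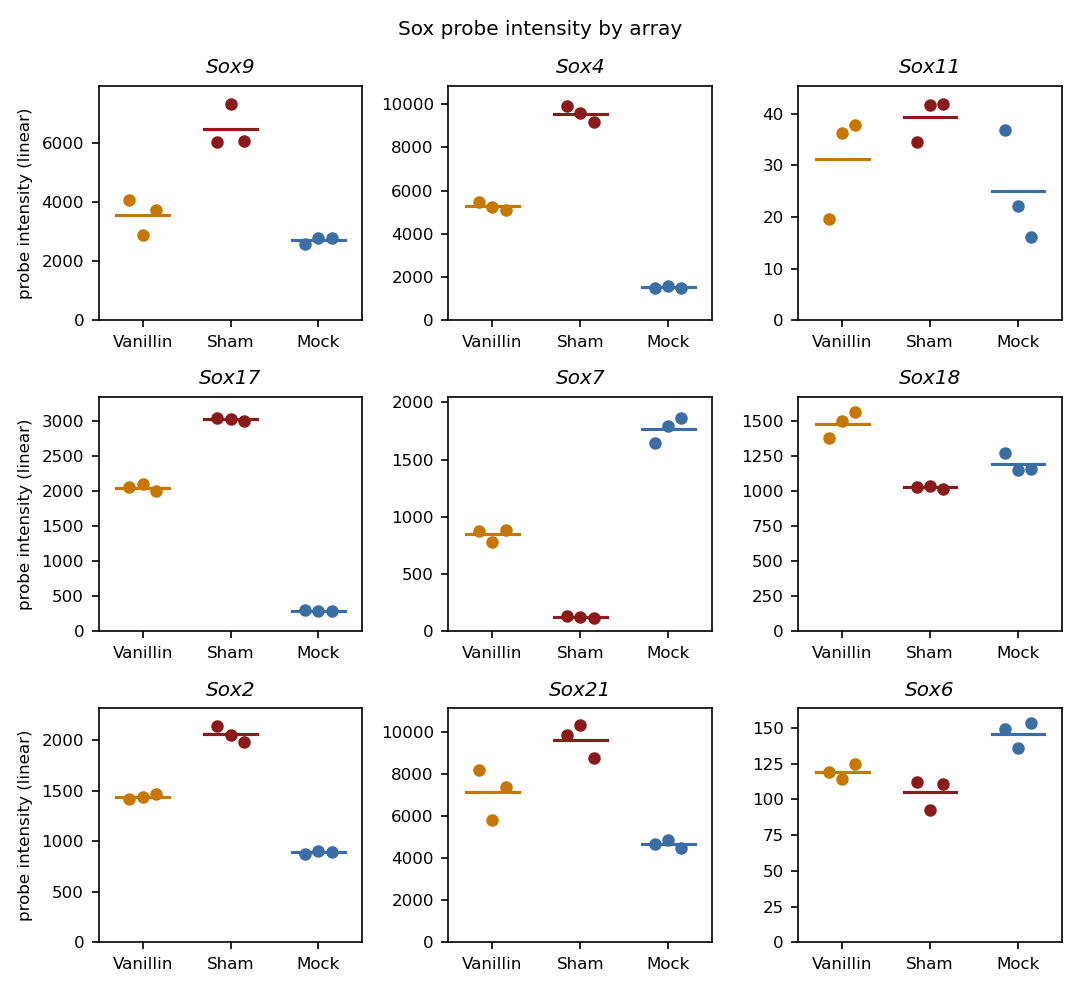
Probe intensity (linear scale, from 0) of each Sox gene on each of the 9 arrays, by group, with points for arrays and a bar for the group mean (3 arrays each). Vanillin lies between Sham and Mock for Sox9, Sox4, Sox17, Sox7, Sox2, Sox21 and Sox6, is highest for Sox18, and overlaps the other groups for Sox11, whose intensities stay between 16.2 and 41.9.

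Sox4, a group C activator that is raised in many tumours, had intensities of 5474, 5231 and 5079.9 in Vanillin, 9891, 9573 and 9183 in Sham and 1483, 1587 and 1495 in Mock. Every Sham array was above every Vanillin array, and every Vanillin array above every Mock array. Sham was 6.22-fold higher than Mock (log2 change 2.64, SE 0.0532, adjusted p = 3.1e-10), a larger size of change than for 97.1% of probes. Vanillin was lower than Sham by a log2 change of -0.86 (SE 0.0532, adjusted p = 2.3e-06) and remained 3.43-fold above Mock (log2 change 1.78, adjusted p = 1.4e-08). All fold changes are on the log2(intensity + 16) scale, which understates changes of dim probes.

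Sox9, the crypt-base factor, had 4087, 2893 and 3747 in Vanillin, 6049, 7321 and 6085 in Sham and 2573, 2775 and 2781 in Mock. The Sham arrays were the highest and the groups did not overlap, but Vanillin replicate 2 came close to the Mock arrays. Sham exceeded Mock 2.38-fold (log2 change 1.25, SE 0.127, adjusted p = 2.5e-05). Vanillin fell below Sham (log2 change -0.87, SE 0.127, adjusted p = 0.000538), a size of change like that of Sox4 but with more spread between arrays. The difference of Vanillin from Mock was small, 0.38 (95% interval 0.10 to 0.67, adjusted p = 0.0319). That call was lost without Vanillin replicate 1 (adjusted p = 0.0955) or 3 (0.0981), without Mock replicate 1 (0.0847), 2 (0.0606) or 3 (0.0614), with the replicate block (0.0663), and with array weights (log2 change 0.18, adjusted p = 0.13).

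Sox9 and Sox4 were set beside 19 measured Wnt and crypt progenitor genes. The shares of all probes called were 59.7% in Sham minus Mock, 47.9% in Vanillin minus Sham and 50.7% in Vanillin minus Mock. In Sham minus Mock, 15 of these rose, 1 fell and 3 were not called (median 1.67, beside 0.11 over all named genes), with the Wnt target Sp5 at 5.96, the feedback gene Nkd1 at 3.96 and the feedback gene Axin2 at 2.29. Olfm4, a secreted marker of crypt base cells, was the one that fell (-5.91). In Vanillin minus Sham, 15 fell, 1 rose and 3 were not called (median -0.46, beside -0.11), with the crypt factor Ascl2 at -0.80, the stem cell receptor Lgr5 at -0.78 and Sp5 at -0.77, while Olfm4 rose by 0.77. Against Mock, Vanillin was higher for 14, lower for 2 and not called for 3 (median 1.07, beside -0.00), with Prox1, a homeobox factor, at 2.90. Lgr5 had 4329, 4097 and 3930.3 in Vanillin, 7524, 7274 and 6488 in Sham and 939.6, 952 and 916 in Mock, the same order of groups as Sox4. Ctnnb1, which encodes β-catenin, changed less, by -0.20 in Vanillin minus Sham and 0.67 in Sham minus Mock.

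Sox11, the other group C member, is best known from neural progenitors. Its probe was dim, with 19.7, 36.3 and 37.8 in Vanillin, 34.6, 41.6 and 41.9 in Sham and 36.9, 22.2 and 16.2 in Mock. Every value lay under 50, as did about 20% of probes on each array, and the groups overlapped. No difference passed the test: the log2 change was -0.25 in Vanillin minus Sham (95% interval -0.71 to 0.21), 0.46 in Sham minus Mock (-0.00 to 0.92, adjusted p = 0.0789) and 0.21 in Vanillin minus Mock (-0.25 to 0.67). The intervals are wide, so they do not show that Sox11 was alike in the groups. Sham minus Mock passed without Mock replicate 1 (adjusted p = 0.0126), without Vanillin replicate 1 (0.0404) and with array weights (0.0085), and so did Vanillin minus Mock with array weights (0.54, adjusted p = 0.00931).

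The 3 group F genes did not move together. Sox17, which drives endoderm and arterial endothelium and can restrain Wnt signalling by binding β-catenin, had 2060.2, 2102 and 1999 in Vanillin, 3048, 3031 and 2999.9 in Sham and 301, 296 and 289 in Mock. The Mock arrays were far below all others, and Vanillin stood nearer to Sham than to Mock. Sham was 9.78-fold above Mock (log2 change 3.29, SE 0.0431, adjusted p = 1.9e-11), and Vanillin was 6.65-fold above Mock (2.73, adjusted p = 3.5e-10), a larger size of change than for 99.4% of probes. Vanillin fell by 0.56 on the log2 scale relative to Sham (SE 0.0431, adjusted p = 1.1e-05).

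Sox7, also an endothelial factor of group F, went the other way. It had 879, 782 and 889 in Vanillin, 130.2, 125 and 119.6 in Sham and 1643, 1792 and 1861 in Mock, so Sham was lowest and Mock highest with no overlap. The log2 change was -3.66 in Sham minus Mock (SE 0.0694, adjusted p = 2.0e-10), which makes Sham 12.6-fold lower. Vanillin was 6.14-fold above Sham (log2 change 2.62, SE 0.0694, adjusted p = 4.9e-09) and below Mock (log2 change -1.04, adjusted p = 2.4e-06). Its size of change was larger than that of 98.6% of probes in Vanillin minus Sham and of 98.3% in Sham minus Mock.

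Sox18, which is needed for lymphatic vessels and, as the ragged mutants of mice show, for the coat, had 1378, 1503 and 1564 in Vanillin, 1029, 1035 and 1014 in Sham and 1270.1, 1151 and 1155 in Mock. It was the only member highest in Vanillin on every array. Vanillin rose by 0.52 relative to Sham (SE 0.0619, adjusted p = 0.000156) and by 0.31 relative to Mock (adjusted p = 0.00266). Sham minus Mock was small, -0.21 (SE 0.0619, adjusted p = 0.0157), a smaller size than for most probes, and it did not pass without Mock replicate 1 (-0.17, adjusted p = 0.0563).

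Endothelial genes as a list did not show the shifts of Sox17 or Sox7. Of 18 measured, 4 rose, 6 fell and 8 were not called in Sham minus Mock (median -0.02, beside 0.11 over all named genes), with the junction gene Cldn5 at -1.57, the Notch ligand Dll4 at 1.54, the VEGF receptor Flt1 at -1.08 and the sialomucin Emcn at -0.84. In Vanillin minus Sham, 7 rose, 1 fell and 10 were not called (median 0.08, beside -0.11), with Cldn5 at 0.90, Dll4 at -0.78, Emcn at 0.62 and Egfl7 at 0.44. Vanillin minus Mock gave 5 higher, 3 lower and 10 not called (median 0.01). Single genes of the list went in opposite directions. Dll4 (0.76 in Vanillin minus Mock) had the group order of Sox17, and Cldn5 (-0.66) and Emcn (-0.22) had that of Sox7. Of all probes, 59.7% were called in Sham minus Mock, 47.9% in Vanillin minus Sham and 50.7% in Vanillin minus Mock. The summed intensity of the list was 43529.9 to 46825 in Vanillin, 41956 to 42480.1 in Sham and 45649.6 to 48899 in Mock, and no member was at 0. The adhesion gene Pecam1 averaged 1359 ± 117 in Vanillin, 971 ± 59.8 in Sham and 1120.3 ± 33.9 in Mock (SD, n = 3 each), the order seen for Sox18. The cadherin gene Cdh5 averaged 1106 ± 202 in Vanillin, 1347 ± 50.8 in Sham and 989.8 ± 30.9 in Mock (SD, n = 3 each), and of its differences only Sham minus Mock passed the test (0.44, adjusted p = 0.00949).

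**Figure D2:**
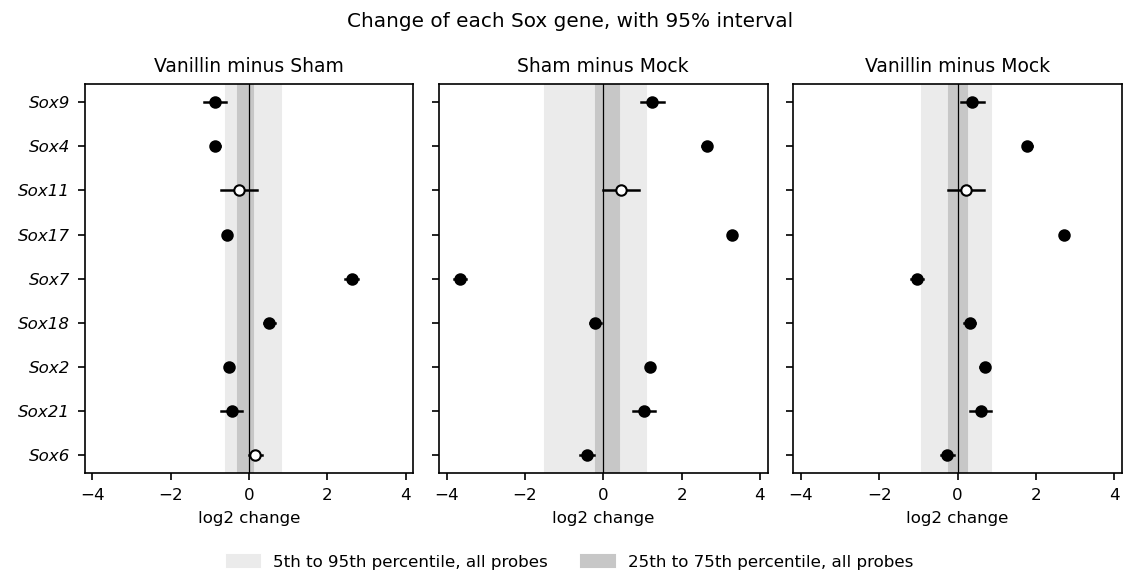
Log2 change of each Sox gene in the 3 comparisons, with 95% intervals from limma (filled points at an adjusted p under 0.05, open points otherwise). Grey bands give the 5th to 95th and the 25th to 75th percentile of all 26423 probes. In Sham minus Mock, Sox17 (3.29), Sox4 (2.64) and Sox7 (-3.66) lie far outside the wider band, which runs from -1.48 to 1.09.

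Sox2, the group B activator of pluripotent cells, foregut and basal squamous cells, had 1420.0, 1432 and 1469 in Vanillin, 2141, 2047 and 1976 in Sham and 870.2, 903 and 894 in Mock. The groups were well apart, and arrays within a group differed little. Sham exceeded Mock 2.29-fold (log2 change 1.19, SE 0.0473, adjusted p = 3.3e-08). Relative to Sham, Vanillin fell by 0.51 on the log2 scale (SE 0.0473, adjusted p = 3.4e-05), and it stayed 1.61-fold above Mock (0.69, adjusted p = 2.9e-06). Sox2 lies within Sox2ot, a long noncoding RNA gene, and whether the probe tells them apart is not given in the sources used here. The platform's own Sox2ot probe, looked up after the Sox2 values were seen, was dim (means of 60.2 in Vanillin, 53.6 in Sham and 46.9 in Mock) and had a log2 change of 0.15 in Sham minus Mock (adjusted p = 0.0511). It was highest in Vanillin, where Sox2 was intermediate (0.28 in Vanillin minus Mock, adjusted p = 0.00287).

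Sox21, a group B factor that counteracts Sox2-type activators and is needed for the hair shaft in mice, had 8197, 5846 and 7414 in Vanillin, 9866, 10329 and 8755 in Sham and 4692, 4882 and 4486 in Mock. Sham was highest and Mock lowest, and the Vanillin arrays were the most spread. Sham was 2.05-fold above Mock (log2 change 1.04, SE 0.118, adjusted p = 5.4e-05). Vanillin was below Sham (log2 change -0.44, SE 0.118, adjusted p = 0.0136) and above Mock (0.59, adjusted p = 0.00256). Vanillin replicate 2 was the lowest Vanillin array for Sox9 and Sox21, and also for Sox7 and Sox6. The name Sox21 is also an old synonym of Sox10 in RefSeq. The platform lists Sox10 probes under their own symbol, and the probe sequences were not used here.

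Sox6, a group D factor without an activation domain of its own, works with Sox5 and Sox9 in cartilage and represses slow-fibre genes in skeletal muscle. It had 119, 114 and 125 in Vanillin, 112, 92.4 and 111 in Sham and 149, 136 and 153 in Mock. Mock was highest, and the Vanillin arrays lay just above those of Sham. Sham fell relative to Mock by 0.42 on the log2 scale (SE 0.0776, adjusted p = 0.00124). Vanillin minus Sham was 0.16 (95% interval -0.01 to 0.34, adjusted p = 0.117). It passed with the replicate block over all 9 arrays (adjusted p = 0.0427) but not with the block in a fit of the 6 Vanillin and Sham arrays. Without Sham replicate 2, the lowest Sham array, it was 0.08 (adjusted p = 0.345). Vanillin minus Mock was -0.26 (SE 0.0776, adjusted p = 0.0211). That call was lost without Vanillin replicate 2 (adjusted p = 0.0725), Mock replicate 1 (0.0573) or Mock replicate 3 (0.0759).

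Genes of tissues in which Sox6 is known moved differently from one another. All 10 measured skeletal muscle genes fell in Sham minus Mock (median -5.16), with Ckm at -6.44, Atp2a1 at -6.20, Tnni2 at -5.23 and Acta1 at -5.09, and in Vanillin minus Sham 7 rose, 1 fell and 2 were not called (median 1.66). Their summed intensity was 48810.3 to 54024 in Vanillin, 8126 to 8423 in Sham and 135814 to 143834 in Mock, and their part in the change of Sox6 was not tested. Of 11 cartilage genes, which depend on Sox9, Sox5 and Sox6, 3 rose, 3 fell and 5 were not called in Sham minus Mock (median 0.04), with Comp at -1.04 and Hapln1 at 0.76. In Vanillin minus Sham, 3 rose, 4 fell and 4 were not called (median -0.04), with Col9a1 at -0.81 and Col9a2 at -0.51. Col2a1, the cartilage collagen, averaged 145 ± 6.43 in Vanillin, 119 ± 22.5 in Sham and 128 ± 5.41 in Mock (SD, n = 3 each), and none of its differences passed the test.

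The groups also differed in markers of tissue other than colon mucosa. Of 17 squamous epithelium genes, all fell in Sham minus Mock (median -5.20), with Krt1 at -9.72, Sprr1b at -8.79, Ivl at -7.58 and Trp63 at -6.49, and 16 rose and 1 was not called in Vanillin minus Sham (median 4.73). Their summed intensity was 376542 to 428689 in Vanillin, 50859 to 52816 in Sham and 647536 to 655519 in Mock. Of 19 hair follicle genes, 15 fell, 1 rose and 3 were not called in Sham minus Mock (median -3.95), and 15 rose and 4 were not called in Vanillin minus Sham (median 3.28). Summed, they gave 67231 to 70313 in Vanillin, 5223 to 5653 in Sham and 127779 to 134206 in Mock. Hoxc13, a hair keratin regulator, had 663, 634 and 621 in Vanillin, 72.1, 50.5 and 94.2 in Sham and 1017, 1055 and 980.2 in Mock. No member of either list was at 0 in any group.

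Sox7 shared the group order of the squamous and hair follicle lists, and equally that of the skeletal muscle, smooth muscle and adipocyte lists. Sox2 and Sox21, which are known from squamous and hair follicle tissue, had the reverse order. On the log2 scale relative to the Mock mean, the Sham arrays were at -5.22 to -5.18 for the squamous median, at -3.98 to -3.93 for the hair follicle median, and at -3.71 to -3.60 for Sox7. The part of such tissue in the change of Sox7 was not tested. Nor was it tested for Sox4, Sox9, Sox17, Sox2 and Sox21, whose group order is the reverse of these lists. Epcam and Cdx2 were looked at as markers of colon epithelium. Epcam, an epithelial adhesion gene, averaged 64452 ± 488 in Vanillin, 60542 ± 8504 in Sham and 63711 ± 1413 in Mock (SD, n = 3 each). These lie near the highest value on any array, 65510, so Epcam does not rank the groups. Cdx2, the intestinal homeobox factor, had 2663, 2825 and 2862 in Vanillin, 4229, 4099 and 4468 in Sham and 487, 453 and 478 in Mock, the same order as Sox17, Sox4 and Sox2. Its rise in Sham minus Mock (3.13) was the largest among 18 intestinal epithelial genes, whose median was 0.27. Next by p were Muc2 (1.35), Spdef (-0.87) and Hnf4a (0.67). Of that list, 9 genes rose, 3 fell and 6 were not called. Cdx2 alone therefore does not give the amount of colon epithelium in a group.

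**Figure D3:**
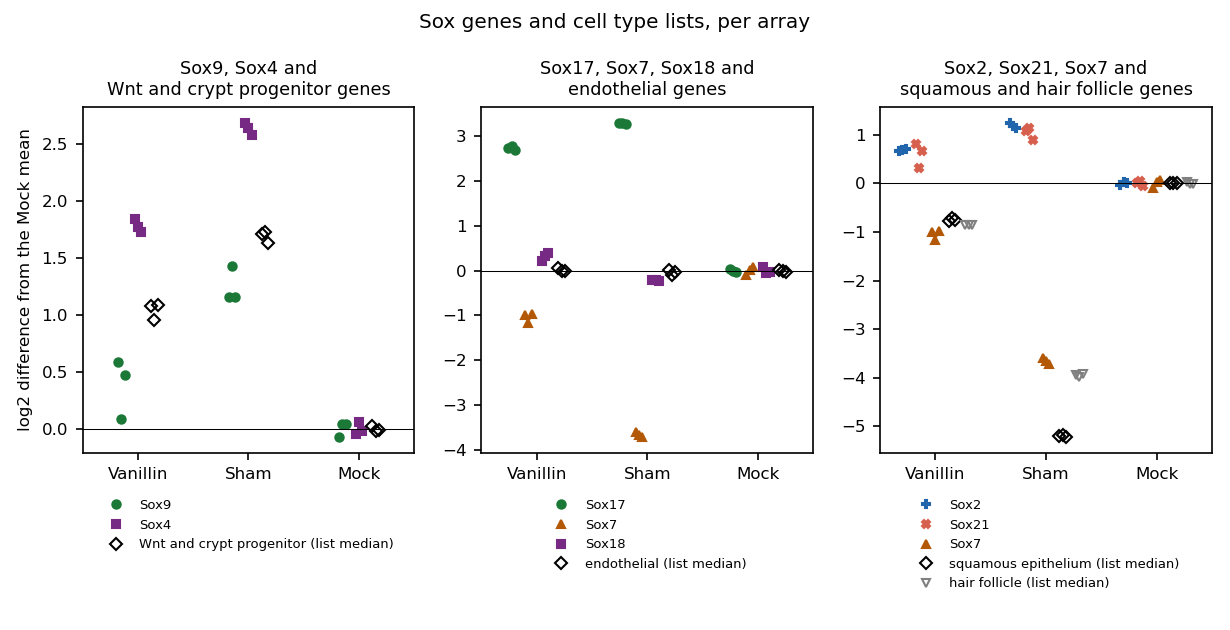
Log2 difference of each array from the Mock mean for Sox genes (filled) and for the median of a marker list (open), by group. The Wnt and crypt progenitor median lies between Sox9 and Sox4 in Vanillin and in Sham, the endothelial median lies between -0.09 and 0.06, and Sox7 falls in Sham as the squamous and hair follicle medians do.

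Other lists gave further context. Of 18 intestinal epithelial genes, 9 rose, 3 fell and 6 were not called in Sham minus Mock (median 0.27), and 1 rose, 9 fell and 8 were not called in Vanillin minus Sham (median -0.24), with Atoh1, the secretory lineage factor, at -1.27. The Krt8 probe averaged 0 in Vanillin and Sham once negative values were set to 0, and the list summed to 363692 to 376864 in Vanillin, 383843 to 402225 in Sham and 333945 to 340459 in Mock. Of 11 tuft cell genes, set beside Sox4 for its link to that lineage, 2 rose, 6 fell and 3 were not called in Sham minus Mock (median -0.22), and 5 rose, 3 fell and 3 were not called in Vanillin minus Sham (median 0.14). Pou2f3, a tuft cell factor that keratinocytes also express, led both comparisons, at 3.22 in Vanillin minus Sham and -3.42 in Sham minus Mock. Dclk1, another tuft cell marker, changed by 0.37 in Vanillin minus Sham and had a log2 change of -0.04 in Sham minus Mock (adjusted p = 0.53), so its order was not that of Sox4. Trpm5, the cation channel of tuft cells, had the order of Sox4, at -0.40 in Vanillin minus Sham (adjusted p = 0.000461), 0.56 in Sham minus Mock (adjusted p = 2.6e-05) and 0.16 in Vanillin minus Mock (adjusted p = 0.0454).

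Of 12 adipocyte genes, 2 rose, 9 fell and 1 was not called in Sham minus Mock (median -4.27), and 9 rose, 2 fell and 1 was not called in Vanillin minus Sham (median 3.76). All 6 measured smooth muscle genes fell in Sham minus Mock (median -2.02), and 4 rose and 2 were not called in Vanillin minus Sham (median 0.27). Of 10 glia and Schwann cell genes, 3 rose, 6 fell and 1 was not called in Sham minus Mock (median -0.37), and 3 rose, 1 fell and 6 were not called in Vanillin minus Sham (median 0.25). The adipocyte genes had the group order of Sox7 as well, with sums of 167454 to 175142 in Vanillin, 22811 to 23784 in Sham and 182381 to 188318 in Mock.

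The 10 other Sox genes, on their brightest probe, had changes of -0.96 to 0.57 in Sham minus Mock, where 3 rose, 3 fell and 4 were not called (median 0.03). In Vanillin minus Sham, 2 rose, 3 fell and 5 were not called (-0.49 to 0.37), and in Vanillin minus Mock, 1 rose, 5 fell and 4 were not called. Called in Sham minus Mock were 6 of 10, beside 59.7% of all probes. The same count was 5 of 10 in Vanillin minus Sham (47.9% of probes) and 6 of 10 in Vanillin minus Mock (50.7%). These shares lie near those of all probes. The largest change among the 10 in Sham minus Mock was the fall of Sox15, a group G factor of muscle progenitors (-0.96, adjusted p = 2.2e-06). Its means were 691 in Vanillin, 561 in Sham and 1105 in Mock. Sox10, the glial and melanocyte factor of group E, fell by 0.75 on its brighter probe (adjusted p = 0.000556), but its other probe gave -0.10 (adjusted p = 0.617). Sox5, a partner of Sox6, rose in Sham minus Mock (0.57), where Sox6 fell, and Sox8 fell by 0.40. In Vanillin minus Sham, the group B genes Sox1 and Sox3 had -0.21 and -0.40, and the group D gene Sox13 had -0.49. The change of Sox3 was larger in size than for 75.2% of probes (adjusted p = 0.00134). Sox14 had -0.03 and 0.34 on its probes in Sham minus Mock, Sox30 had 0.32 (adjusted p = 0.243), and Sox12 was dim, with means of 26.3 in Vanillin, 31.9 in Sham and 35.9 in Mock.

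For each member, the genes with the most similar pattern over the 9 arrays were found by Pearson correlation on the log2 scale, among 2867 or 2868 candidate genes. The 9 arrays fall into 3 groups, and the members share these groups with all other genes, so r is given as a description. Many candidates had an r over 0.95: 751 for Sox4, 711 for Sox2, 765 for Sox7, 664 for Sox17 and 212 for Sox21. The genes named are therefore not particular to these members. For Sox18 there were 3 such candidates, and for Sox11 there were 0. Nearest to Sox4 were Fbxw5 (r = 0.9993), Igtp (0.9992) and H2ac4 (0.9989). Sox2 was nearest to the replication gene Mcm3 (0.9988), Gpr171 (0.9987) and Derl3 (0.9985), and Sox9 to Praf2 (0.9906), Dock5 (0.9904) and Nrxn3 (0.9891). The pattern of Sox21 was closest to that of the cyclin gene Ccnd1 (0.9891), Galns (0.9879) and Mlkl (0.9878), and that of Sox17 to Erich3 (0.9998), R3hdml (0.9996) and Isx (0.9996), an intestinal homeobox factor. Sox7 lay nearest to Wfdc12 (0.9996), Defb14 (0.9993) and Tmprss11e (0.9992). For Sox18 these were Il6ra (0.9781), Alox5 (0.9742) and Rgs18 (0.9637), and for Sox6 they were Coq10a (0.9681), Calr4 (0.9668) and Cln8 (0.9634). For Sox11, which was dim, they were Cited1 (0.9079), Sh2d6 (0.8804) and Tekt1 (0.8669). The r also falls with the spread of a member's own arrays, so it is not compared between members.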

How the data were processed

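Colon RNA from 9 mouse arrays was amplified and labelled with Cy5, per the labels' protocols. The authors deposited 1 intensity per probe and array, which the values show to be linear. The submitters' processing notes name limma without its role. On each array 3 to 14 probes lie below 0, as background subtraction can leave them, and the medians of 319.6 to 320.1 are those of arrays normalized together, but no label records either step. Scanner and probe filter: not given in the sources used here. Dim probes depend most on such steps.

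Negative values were set to 0 and log2(intensity + 16) was taken. All 26423 probes were fitted together, with 1 mean for each of the 3 groups, in limma 3.58.1 under R 4.3.3 (moderated two-sided test, 6 residual and 2.69 prior degrees of freedom), with Benjamini-Hochberg adjustment over all probes within each comparison and calls at an adjusted p under 0.05. The fit was tested on simulated data. Gene symbols were updated through RefSeq names. Lists used the brightest probe of a gene and are described by counts and medians, without a set test. Figures used matplotlib 3.10.9 in Python 3.11.15.

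The text names every Sox gene of the platform and, for a list in a comparison, up to 4 genes with the smallest p. Some genes named for 1 comparison are also given in others. A few marker genes were fixed by name. For each member, the 3 genes nearest in pattern were named (mean of at least 50 in a group and group means at least 1 apart). Sox2ot and Krt8, whose probe averaged 0 in Vanillin and Sham, were named outside these rules. Members, lists and these rules were chosen with earlier results of these data known. Same-numbered Vanillin and Sham arrays deviated together weakly (correlations of 0.17, 0.13 and 0.2 for replicates 1, 2 and 3), while those with Mock did not (-0.29 to -0.02). Some arrays of different number correlated as much, such as Vanillin replicate 3 with Mock replicate 1 (0.21). Whether the numbers mark pairs is therefore not settled. The closing section gives what the replicate block changed. Arrays within a group correlated at 0.995 to 0.998.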

Additional observations from a re-analysis of the deposited data

How the results depend on the processing

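Of 27 changes (9 Sox genes in 3 comparisons), 21 kept their direction and their side of the threshold under each alternative run: pseudocounts of 1 and 64, no dim probes (the dimmest 30% left out, which removes Sox11), quantile or median normalization again, only the 6 arrays compared, array weights, a trend, the replicate block and leaving out each array in turn. The other 6 were Vanillin minus Sham for Sox6, Vanillin minus Mock for Sox6, Sox9 and Sox11, and Sham minus Mock for Sox11 and Sox18. No change turned its direction. The replicate block treats same-numbered arrays of all 3 groups as a set, although it is not settled that the numbers mark pairs. It gave 8 called Sox genes in place of 7 in Vanillin minus Sham (Sox6 was added). In Vanillin minus Mock it gave 7 in place of 8, where Sox9 had 0.38 with an adjusted p = 0.0663. It also moved some list counts, each by at most 2 genes and less than 1.5 times (called tuft cell genes in Vanillin minus Mock were 5 with the block, against 7). In a fit of the 6 Vanillin and Sham arrays with the block, chosen after the pairing check, 7 Sox genes were called and 3 of the other Sox family genes, against 5. Leaving out 1 array at a time gave 3 to 5 other Sox family genes in Vanillin minus Sham (3 without Sham replicate 1 or 3) and 2 to 7, against 6, in Vanillin minus Mock (2 without Vanillin replicate 3, and 3 without Vanillin replicate 2, Mock replicate 2 or Mock replicate 3). Without dim probes, called cartilage genes numbered 3 in Vanillin minus Sham, against 7, and 2 in Sham minus Mock, against 6, since fewer were tested. With array weights they were 6 in Vanillin minus Mock, against 3, and the cause was not tested. Dim probes such as Sox11 are limited by their signal.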
